A study of Mus musculus with 4 samples.

Results

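The transforming growth factor beta (TGF-beta) pathway was examined in splenic CD8 T cells of mice given the dioxin TCDD (2,3,7,8-tetrachlorodibenzo-p-dioxin), which binds the aryl hydrocarbon receptor (AHR), or its solvent. The genes were the ligand Tgfb1, the receptors Tgfbr1 and Tgfbr2, the SMAD genes Smad2, Smad3, Smad4 and Smad7, and the corepressors Ski, Skil and Tgif1. They were chosen by name as 10 of the 12393 genes that the array annotation names, and 18 of 22626 probe sets map to exactly 1 of them. Where a gene had several probe sets, the one with the highest mean over the arrays served as its main probe set.

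The TCDD group received 10 µg/kg by intraperitoneal injection and the DMSO group received DMSO alone. All mice were female C57BL/6 animals of 8 to 12 weeks, killed after 24 h, and CD8 T cells were sorted from spleen to a purity above 99%. The design text gives 4 mice for a group and says that their cells were pooled, so no value belongs to 1 mouse. Each group has 2 arrays, numbered 1 and 2 in the titles. The labels say neither what the number stands for nor whether a group's arrays hold separate pools of mice. The p-values therefore rest on array-to-array spread alone, which may be technical.

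TGF-beta binds the type II receptor TGFBR2, which recruits and phosphorylates the type I receptor TGFBR1. The receptor complex then phosphorylates SMAD2 and SMAD3, which join SMAD4 and act on target genes in the nucleus. SMAD7 blocks the receptor, and SKI, SKIL (also called SnoN) and TGIF1 recruit corepressors to the SMAD complex. SMAD7 and SKIL are themselves induced by the pathway in many cell types and restrain it. In CD8 T cells TGF-beta is known for limiting effector differentiation and for inducing the integrin alpha E chain CD103, the product of Itgae.

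Promoter sequence was available for 6 of the 10 genes, in 11 windows of 250 bases upstream of a RefSeq transcription start on GRCm38.p6. The 3 windows below belong to Tgfb1 and Ski, whose TCDD values all lay under their DMSO values, and to Tgif1, whose values followed the array number. They are printed 5′ to 3′ on the strand of the gene, and capitals mark GCGTG or its reverse complement CACGC, the core letters of the element that AHR and its partner ARNT bind.
Tgfb1, chr7:25686752-25687001, plus strand: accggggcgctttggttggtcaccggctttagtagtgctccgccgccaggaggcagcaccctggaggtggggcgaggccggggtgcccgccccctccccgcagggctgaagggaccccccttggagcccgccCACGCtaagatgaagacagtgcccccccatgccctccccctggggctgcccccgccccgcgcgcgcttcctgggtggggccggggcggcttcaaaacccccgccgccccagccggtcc
Ski, chr4:155222536-155222785, minus strand: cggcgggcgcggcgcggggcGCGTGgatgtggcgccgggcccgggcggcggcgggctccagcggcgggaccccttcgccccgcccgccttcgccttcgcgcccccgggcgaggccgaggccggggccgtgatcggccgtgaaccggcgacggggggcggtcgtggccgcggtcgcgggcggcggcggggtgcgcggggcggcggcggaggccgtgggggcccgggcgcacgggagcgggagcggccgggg
Tgif1, the second of 5 starts, chr17:70851735-70851984, minus strand: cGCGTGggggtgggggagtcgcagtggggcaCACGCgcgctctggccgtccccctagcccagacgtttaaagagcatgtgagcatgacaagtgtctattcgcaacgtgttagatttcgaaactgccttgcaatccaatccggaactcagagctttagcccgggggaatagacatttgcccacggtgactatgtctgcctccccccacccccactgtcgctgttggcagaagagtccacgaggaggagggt
The letters were found on either strand in 6 of the 11 windows of these genes, and in 28.2% of the 32851 windows of all genes. Tgif1 held them before the second start, and not before its other starts. Tgfbr1 (before the first of its 2 starts), Tgfbr2 and Smad3, whose TCDD and DMSO values overlapped, held them too. All 6 genes with sequence thus held them, and the letters do not set the printed genes apart. A match is a run of letters and not a binding site, and these data hold no measure of AHR binding.

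The values are log2 expression from the authors' RMA processing, which has no true zero. A value of 6.01, the median of the probe set means, is used here as the mark between dimmer and brighter probe sets, and 8 of the 10 main probe sets lay above it. Those of Tgfb1, at a mean of 5.75, and Tgif1, at 5.82, lay below it, where RMA values compress differences. Probe sets differ in how brightly they hybridise, so levels are compared between arrays and not between genes. Array pairs correlated at 0.981 to 0.993 over all probe sets, and the highest value was between TCDD 1 and DMSO 1. All 9 measured CD8 T cell markers, among them Cd8a, Cd8b1 and Cd3e, lay above the median level. In cells pooled before RNA extraction, fewer cells of a type and less RNA per cell cannot be told apart.

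The comparison of TCDD with DMSO asked how these genes measured 24 h after the dioxin. Differences between the group means were small, from -0.365 for Tgfb1 to 0.345 for Smad4 on the log2 scale, with 3 genes higher and 7 lower. By limma, adjusted after Benjamini and Hochberg across the whole array, 0 of the 10 genes passed (adjusted p = 0.9973 for each), as did 0 of 22626 probe sets (0.0%). At an unadjusted limma p under 0.05 there was 1 gene higher, Smad4, and 1 lower, Tgfb1, where 0.823% of all genes were higher and 1.28% lower. The TCDD values all lay above the DMSO values for 1 gene, Smad4 (12.9% of all genes), and all below them for 3, Tgfb1, Smad2 and Ski (12.0%). The groups overlapped for 6. The median difference was -0.13 over the 10 genes and 0.01 over all genes. The median size was 0.24, against 0.09 over all genes and 0.11 over those above the median level. The median over the 10 genes was -0.39 without TCDD array 1 and 0.05 without TCDD array 2, so its sign rests on TCDD array 2.

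**Figure D1:**
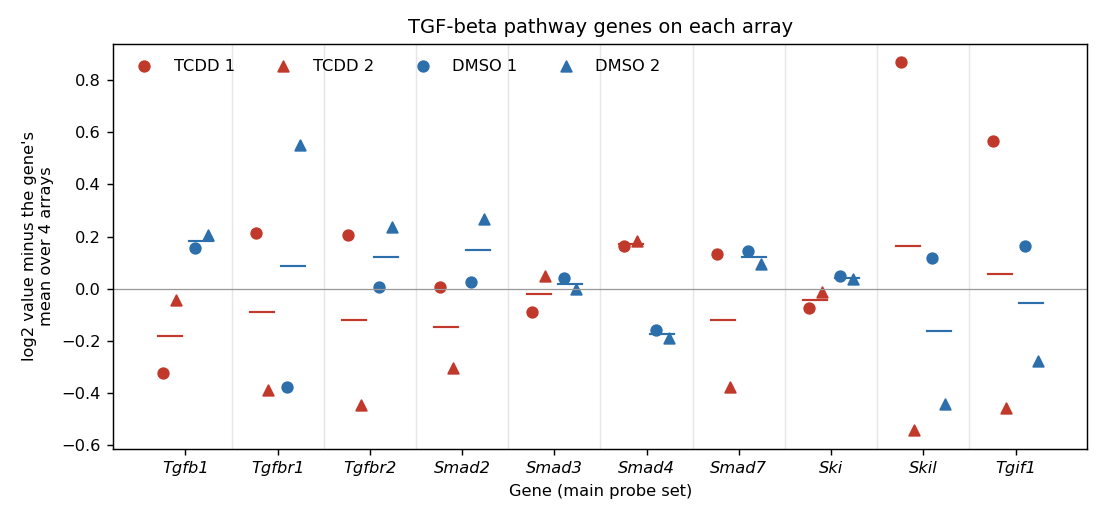
Log2 value of each gene's main probe set minus its mean over the 4 arrays, for TCDD (red, left) and DMSO (blue, right), with array number 1 as circles, number 2 as triangles and group means as lines. Smad4 is separated by treatment, at 11.14 and 11.16 against 10.82 and 10.79, while Skil and Tgif1 are higher in both arrays numbered 1.

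Tgfb1, the ligand that T cells themselves secrete in latent form, measured 5.43 and 5.71 in TCDD arrays 1 and 2, against 5.91 and 5.96 in DMSO arrays 1 and 2. Both TCDD values lay below both DMSO values. The means were 5.57 ± 0.198 with TCDD and 5.94 ± 0.035 with DMSO (SD, n = 2 each), a difference of -0.365 with 95% limits of -0.72 and -0.01 (limma adjusted p = 0.9973). The difference was -0.48 between the arrays numbered 1 and -0.25 between those numbered 2. Platelet markers are of interest beside Tgfb1 because platelets also carry TGF-beta 1. The 6 measured platelet and megakaryocyte markers averaged 6.05 and 6.25 in the TCDD arrays, against 6.07 and 6.21 in the DMSO arrays. Both TCDD arrays were higher for 1 marker and lower for 1 (12.9% and 12.0% of all genes), and the groups overlapped for 4. The part of platelets in the Tgfb1 values was not tested.

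The receptors had overlapping groups. Tgfbr2, which encodes the ligand-binding type II receptor, measured 9.96 and 9.31 in the TCDD arrays, against 9.76 and 9.99 in the DMSO arrays. TCDD array 2 stood lowest and the other 3 arrays lay close together. The difference was -0.24 with 95% limits of -0.88 and 0.40 (limma adjusted p = 0.9973), and it was 0.20 within number 1 and -0.68 within number 2. A further probe set of Tgfbr2 above the median level, 1425444_a_at, differed by -0.07, and the third, 1422019_at, was near the bottom of the scale at 3.81 and 3.87 against 3.90 and 3.80.

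Tgfbr1, which encodes the type I receptor kinase, measured 6.37 and 5.77 in the TCDD arrays, against 5.78 and 6.71 in the DMSO arrays. High and low values were thus crossed between treatments and numbers. The difference of -0.175 had limits of -1.15 and 0.80, and it was 0.59 within number 1 and -0.94 within number 2. Its other probe sets, both below the median level, differed by -0.06 and 0.065. For 5 of the 10 genes, Tgfbr1, Tgfbr2, Smad3, Skil and Tgif1, the within-number differences had opposite signs, as for 52.7% of all genes. Whether the response differed between numbers was not tested, since each number holds 1 array per treatment.

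**Figure D2:**
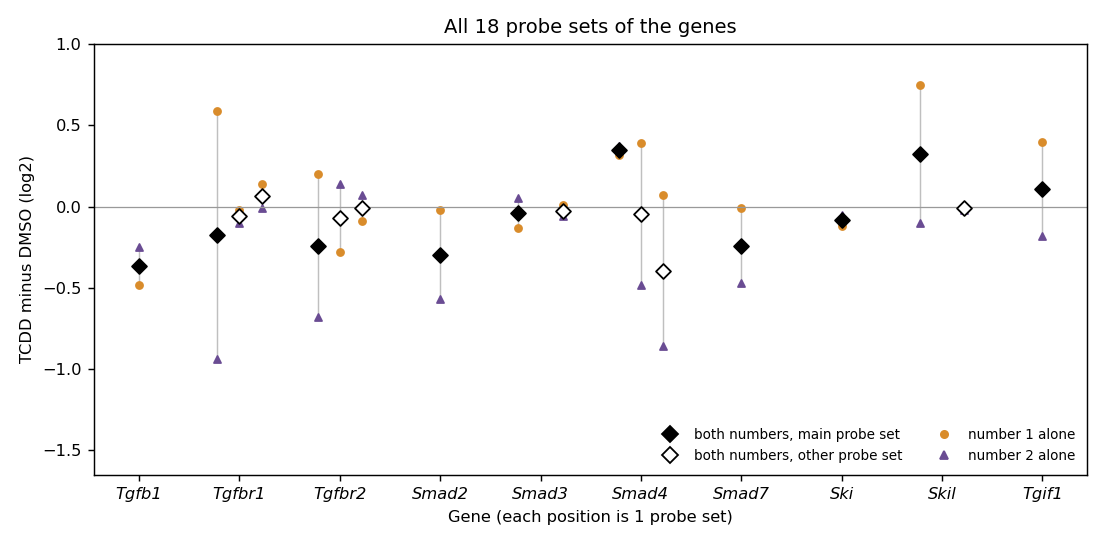
TCDD minus DMSO on the log2 scale for all 18 probe sets, with diamonds for the difference of group means (filled for main probe sets), circles for number 1 alone and triangles for number 2 alone. The main probe set of Tgfbr1 spans 0.59 to -0.94 between the numbers, and the 3 probe sets of Smad4 lie at 0.345, -0.045 and -0.395.

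The receptor-activated SMAD genes did not pass. Smad2 measured 7.28 and 6.97 in the TCDD arrays, against 7.30 and 7.54 in the DMSO arrays. The TCDD arrays were lower, but TCDD array 1 lay only 0.02 under DMSO array 1. The difference was -0.295 with limits of -0.72 and 0.13 (limma adjusted p = 0.9973), most of it between the arrays numbered 2 at -0.57. Smad3 measured 6.04 and 6.18 in the TCDD arrays, against 6.17 and 6.13 in the DMSO arrays. It spanned 0.14 over the 4 arrays, and its difference of -0.04 had limits of -0.33 and 0.25.

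Smad4, the shared partner of the receptor-activated SMADs, had the tightest separation by treatment. Its main probe set, 1422486_a_at, measured 11.14 and 11.16 in the TCDD arrays, against 10.82 and 10.79 in the DMSO arrays. The groups lay far apart for their spread, at 11.15 ± 0.014 with TCDD and 10.81 ± 0.021 with DMSO (SD, n = 2 each). The difference of 0.345 had limits of 0.08 and 0.61, or 1.27-fold, and did not pass (limma adjusted p = 0.9973). It was 0.32 within number 1 and 0.37 within number 2.

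The other Smad4 probe sets, both above the median level, did not share that direction. Probe set 1422487_at measured 9.93 and 9.20 in the TCDD arrays, against 9.54 and 9.68 in the DMSO arrays, a difference of -0.045. Probe set 1422485_at measured 7.24 and 7.62 in the TCDD arrays, against 7.17 and 8.48 in the DMSO arrays, a difference of -0.395. Both had overlapping groups, and the mean of the 3 probe sets differed by -0.032. No direction for Smad4 as a gene therefore follows from these probe sets.

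Smad7, the inhibitory SMAD, measured 8.61 and 8.10 in the TCDD arrays, against 8.62 and 8.57 in the DMSO arrays. Only TCDD array 2 stood apart, and the groups overlapped. The difference was -0.24 with limits of -0.75 and 0.27, and it was -0.01 within number 1 and -0.47 within number 2. Without TCDD array 2 the difference was 0.015.

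Among the corepressors, Ski was the steadiest. It measured 8.31 and 8.37 in the TCDD arrays, against 8.43 and 8.42 in the DMSO arrays. Both TCDD arrays were lower, by a difference of -0.085 with limits of -0.35 and 0.18. Skil measured 9.97 and 8.56 in the TCDD arrays, against 9.22 and 8.66 in the DMSO arrays. The TCDD arrays held both the highest and the lowest value. The difference of 0.325 had limits of -0.99 and 1.64, and it was -0.38 without TCDD array 1. Tgif1 measured 6.38 and 5.36 in the TCDD arrays, against 5.98 and 5.54 in the DMSO arrays. It showed the same order of arrays as Skil, and its difference of 0.11 had limits of -0.87 and 1.09. It was -0.40 without TCDD array 1 and -0.11 without DMSO array 2.

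The comparison of the arrays numbered 1 with those numbered 2 asked whether the genes followed the array number. Differences here are number 1 minus number 2. Skil and Tgif1 were the only genes of the 10 with a difference above 0.5 in size, and both were higher in number 1. By limma 0 of the 10 genes passed, and the adjusted p ran from 0.4839 to 0.9943. Across the array 1 of 22626 probe sets passed (0.00442%), that of Rgs1, which encodes a regulator of G protein signalling, with 9.94 in both arrays numbered 1 against 6.56 and 6.68 in those numbered 2. With treatment as a block, or with any 1 array left out, 0 probe sets passed. At an unadjusted limma p under 0.05 there were 2 of the 10 genes, Skil and Tgif1, both higher, where 4.22% of all genes were higher and 3.31% lower. Both arrays numbered 1 were higher for 3 genes (14.0% of all genes), lower for 0 (22.4%), and overlapped with number 2 for 7. The median difference was 0.02 over the 10 genes and -0.035 over all genes. With 1 array left out, the median over the 10 genes ran from -0.037, without TCDD array 2, to 0.313, without DMSO array 2. The median size was 0.165 over the 10 genes, against 0.11 over all genes and 0.135 over those above the median level.

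Skil measured 9.97 and 9.22 in the arrays numbered 1 (TCDD, then DMSO), against 8.56 and 8.66 in those numbered 2. Both arrays numbered 1 were above both numbered 2, and the means were 9.60 ± 0.530 in number 1 and 8.61 ± 0.071 in number 2 (SD, n = 2 each). The difference of 0.985 had limits of 0.30 and 1.67, or 1.98-fold, and did not pass (limma adjusted p = 0.564). It was 1.41 within TCDD and 0.56 within DMSO. The other probe set of Skil, 1422054_a_at, just below the median level, measured 6.05 in both arrays numbered 1, against 5.83 and 5.85 in those numbered 2. It kept the order of the numbers with a smaller difference of 0.21.

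Tgif1, a homeodomain corepressor of SMADs, measured 6.38 and 5.98 in the arrays numbered 1, against 5.36 and 5.54 in those numbered 2. The groups did not overlap. The difference of 0.73 had limits of 0.29 and 1.17, or 1.66-fold (limma adjusted p = 0.4839), and it was 1.02 within TCDD and 0.44 within DMSO. Smad7 was the third gene with separate numbers, at 8.61 and 8.62 in number 1, against 8.10 and 8.57 in number 2. Its difference of 0.28 was 0.045 without TCDD array 2.

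The remaining genes overlapped between the numbers. Their differences ran from -0.165, for both Tgfb1 and Tgfbr1, to 0.21 for Tgfbr2. Smad4 differed by 0.005 in its main probe set, and by -0.845 in 1422485_at, where DMSO array 2 was highest. Smad2 differed by 0.035, Ski by -0.025 and Smad3 by -0.05.

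**Figure D3:**
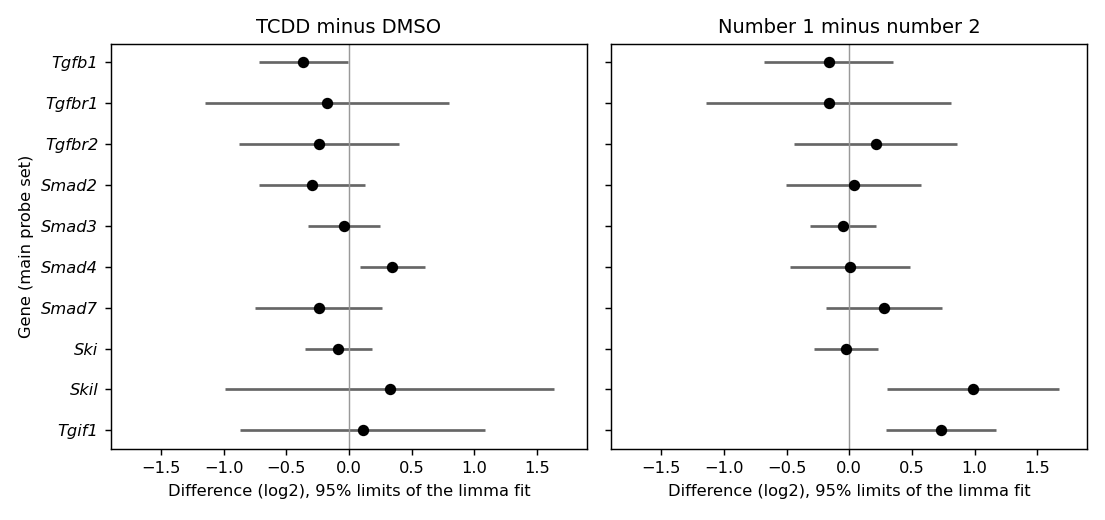
Differences of the 10 main probe sets on the log2 scale with the 95% limits of the limma fit, as TCDD minus DMSO on the left and number 1 minus number 2 on the right. The limits for TCDD include 0 for all but Tgfb1 and Smad4, and those for the number include 0 for all but Skil and Tgif1. None of these passed the adjustment over all probe sets.

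Genes of the early response to stimulation or handling were also measured, and 0 of 15 passed limma after adjustment in either comparison. The 15 measured genes of that list averaged 9.48 and 10.39 in the arrays numbered 1 (TCDD, then DMSO), against 8.61 and 9.58 in those numbered 2. Their median number difference was 0.815, with 6 higher and 0 lower at an unadjusted limma p under 0.05 (4.22% and 3.31% of all genes), and 8 overlapped. The largest was that of Atf3, a stress-induced transcription factor gene, at 8.12 and 8.39 in number 1 against 6.05 and 5.91 in number 2. For TCDD minus DMSO their median was -0.96, with 0 higher and 4 lower (Fos, Jun, Klf2 and Zfp36) at an unadjusted p (0.823% and 1.28% of all genes), and 8 overlapped. Fos, an AP-1 subunit, measured 10.51 and 10.13 in the TCDD arrays, against 12.00 and 12.03 in the DMSO arrays, and Hspa1a and Hspa1b, which encode near-identical heat shock proteins, were highest in DMSO array 2. Skil and the average of the early response list were each higher in number 1 than in number 2 within both treatments. Skil stood highest in TCDD array 1 and the list in DMSO array 1. The part of the early response genes in the values of the 10 genes was not tested.

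Other genes of the pathway were examined in 6 lists holding 96 genes, of which 87 were measured. For TCDD against DMSO 0 of the 87 passed limma in either direction, and 3 were higher and 0 lower at an unadjusted p under 0.05 (0.823% and 1.28% of all genes). Both TCDD arrays were higher for 6 and lower for 12 (12.9% and 12.0% of all genes), and the groups overlapped for 69. The median difference was 0.025. The 16 ligands and activators and the 12 receptors lay between -0.26 and 0.24, and of these 8 ligands or activators and 3 receptors were above the median level. Itgav, an integrin chain that takes part in activating latent TGF-beta, differed by 0.205. Acvr1b, an activin type I receptor that also signals through SMAD2 and SMAD3, differed by -0.26. It measured 7.53 and 7.45 in the TCDD arrays, against 7.57 and 7.93 in the DMSO arrays, and its dimmer probe set differed by 0.11. Inhbb, an activin subunit gene, differed by -0.155 and the ligand gene Bmp7 by 0.105, the type I receptor gene Acvr1 by -0.07 and the coreceptor gene Eng by 0.025.

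Among nuclear partners the histone deacetylase gene Hdac1, part of corepressor complexes, measured 7.87 and 8.05 in the TCDD arrays, against 7.58 and 7.41 in the DMSO arrays. Both TCDD arrays were higher, by a difference of 0.465 that did not pass (limma adjusted p = 0.9973). Smad1, which serves bone morphogenetic protein signals, differed by -0.225 and Sp1, a zinc finger factor that cooperates with SMADs, by -0.325. The value for Sp1 was 0.04 without TCDD array 1 and 0.295 without DMSO array 2, and its dimmer probe set differed by 0.005. In the list of SMAD and receptor turnover, Pmepa1, a feedback inhibitor that sequesters SMADs, measured 7.58 and 7.63 in the TCDD arrays, against 7.37 and 7.33 in the DMSO arrays. Its groups were separate by a difference of 0.255 (limma adjusted p = 0.9973), and its other probe sets, below the median level, differed by 0.04 and 0.225. The deubiquitinase gene Usp4 and the ubiquitin ligase gene Wwp1 both differed by 0.20, and another Wwp1 probe set above the median level by -0.25. Branch kinases and adaptors lay between -0.20 for Tab2 and 0.225 for Traf6, with Akt1 at 0.20. Another Traf6 probe set above the median level differed by -0.005, and its dimmest by -0.115. The differences of Itgav, Bmp7, Eng, Usp4, Traf6 and Akt1 each turned sign with some array left out.

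Genes known to respond to TGF-beta went both ways, and 0 of 19 passed. Their median difference was -0.18, with both TCDD arrays higher for 2, lower for 6 (12.9% and 12.0% of all genes) and overlapping for 11. The list mixes genes that TGF-beta induces, such as Itgae, with genes that it represses, such as Tbx21. Its median and counts therefore give no direction of a TGF-beta response. The 2 higher genes, which were singled out after their values were seen, were Itgae and the gut-homing receptor gene Ccr9. Itgae measured 8.52 and 8.70 in the TCDD arrays, against 8.35 and 8.18 in the DMSO arrays. Its difference was 0.345 (limma adjusted p = 0.9973), at 0.17 within number 1 and 0.52 within number 2. Ccr9 measured 9.41 in both TCDD arrays, against 9.15 and 8.84 in the DMSO arrays, a difference of 0.415 (limma adjusted p = 0.9973). For the mean of the Ccr9 probe sets the difference was only 0.023. On the lower side Tbx21, the T-box factor of effector cells that TGF-beta represses, measured 6.94 and 7.01 in the TCDD arrays, against 7.22 and 8.21 in the DMSO arrays. Its difference of -0.74 was -0.245 without DMSO array 2. Junb, an AP-1 subunit that the early response list also holds, differed by -0.61 with separate groups, and the granzyme gene Gzma by -0.585, with overlapping groups for Gzma and a value of 0.765 without DMSO array 2. The 9 measured CD8 T cell markers averaged 8.997 and 9.38 in the TCDD arrays, against 9.43 and 9.48 in the DMSO arrays. Their median difference was -0.175, and single markers ran from -0.73 for Cd8a to 0.035. Both TCDD arrays were lower for 4 and higher for 0 (12.0% and 12.9% of all genes), and the groups overlapped for 5. Cd8a, and Thy1 at -0.70, were singled out after their values were seen. The part of the CD8 T cell markers in the differences above was not tested.

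**Figure D4:**
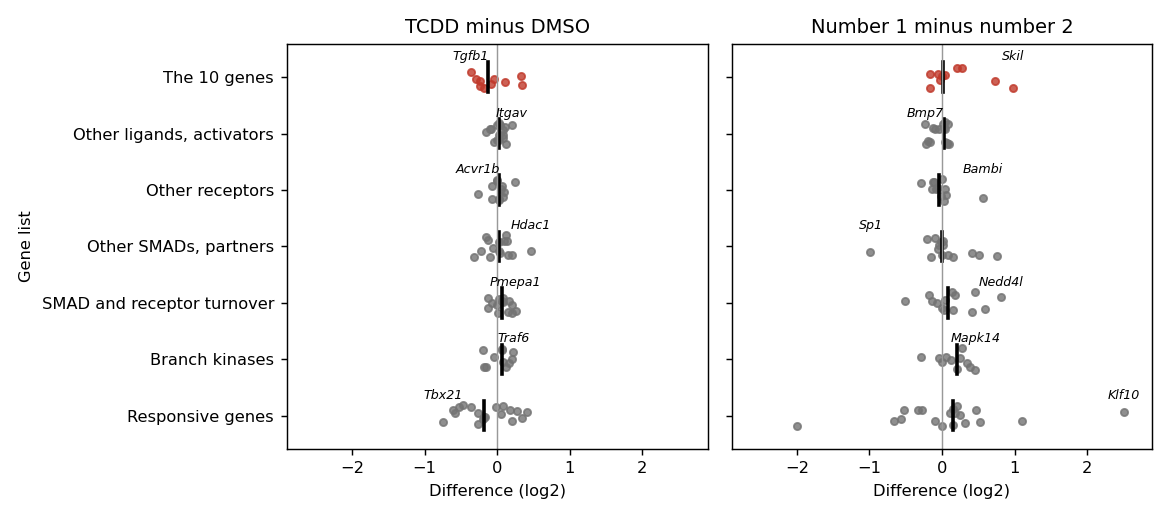
Differences on the log2 scale of the 10 genes (red) and of each further pathway list (grey), 1 point per gene, with the list median as a black bar and the gene of largest size named. Points spread wider for number 1 minus number 2, from -1.995 for Gzma to 2.51 for Klf10, than for TCDD minus DMSO, from -0.74 for Tbx21 to 0.465 for Hdac1.

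By array number 0 of the 87 pathway genes passed limma, and at an unadjusted p under 0.05 there were 11 higher and 4 lower in number 1 (4.22% and 3.31% of all genes). Both arrays numbered 1 were higher for 19 and lower for 15 (14.0% and 22.4% of all genes), and 53 overlapped. Klf10, first described as an early gene induced by TGF-beta, measured 8.38 and 7.68 in the arrays numbered 1 (TCDD, then DMSO), against 5.45 and 5.59 in those numbered 2. Its difference of 2.51 did not pass (limma adjusted p = 0.1989). Tgif2, the relative of Tgif1, measured 7.91 and 7.64 in number 1, against 6.82 and 7.20 in number 2, a difference of 0.765 (limma adjusted p = 0.4839). These values ran in the direction of Skil and Tgif1.

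Nedd4l, a ubiquitin ligase of SMADs and receptors, measured 7.48 and 7.34 in number 1, against 6.69 and 6.49 in number 2. Its difference of 0.82 (limma adjusted p = 0.3189) was not shared by its dimmer probe set, at -0.16. Usp4 differed by 0.59, Mapk14 by 0.46 and Akt1 by 0.39. The numbers overlapped for Mapk14, at 0.97 within TCDD and -0.05 within DMSO, and its dimmer probe sets lay between -0.155 and -0.005. The dimmer probe set of Akt1 averaged 4.58 in number 1 and in number 2. Lower in number 1 at an unadjusted limma p under 0.05 were 4 genes, Sp1 at -0.985, Gzma at -1.995, Gzmb at -0.56 and Prf1 at -0.33. The granzyme gene Gzmb and the perforin gene Prf1 were named after their values were seen. Sp1 measured 8.21 and 8.28 in number 1, against 8.94 and 9.52 in number 2, and its dimmer probe set differed by 0.125. Among the ligand and receptor lists Bmp7 differed by -0.235, Itgav by -0.225, Acvr1b by -0.14 and Eng by -0.115.

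Markers of other cell types were measured on the same arrays. B cell markers averaged 7.56 and 7.45 in the TCDD arrays, against 7.58 and 6.96 in the DMSO arrays. Monocyte, macrophage and dendritic cell markers averaged 6.96 and 6.89 against 6.79 and 6.57, and neutrophil markers 5.96 and 6.25 against 5.91 and 6.92. By average, DMSO array 2 was lowest for the B cell and monocyte lists and highest for the neutrophil list. Number differences of single markers went both ways, from -0.49 to 1.49 in the B cell list and from -1.05 to 1.775 in the monocyte list. Both arrays numbered 1 were lower for 6 of the 8 neutrophil markers and higher for 0 (22.4% and 14.0% of all genes). CD4 and regulatory T cell markers averaged 6.11 and 5.69 in the TCDD arrays, against 6.05 and 5.65 in the DMSO arrays. Of its 6 genes only Ctla4, singled out after its values were seen, was clearly higher in number 1, at 9.28 and 8.70 against 6.07 and 6.46, and the median number difference of the list was -0.025. The array averages of the NK cell markers lay between 5.62 and 5.88, and those of the erythroid markers between 5.87 and 5.94. Of the 4 measured NK cell markers 2 lay above the median level, and of the 4 erythroid markers 1. Log2 values have no zero, so none can be called absent, and the part of these markers in the values of the TGF-beta genes was not tested.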

How the data were processed

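The authors deposited 1 log2 value per probe set and array, made with RMA per the submitters' processing notes. No version of RMA is given in the sources used here, and the range of 3.09 to 14.62 fits a log2 scale. Of 22690 probe sets, 64 Affymetrix controls were left out. Gene names came from GEO's platform annotation, and symbols were updated by Entrez identifier from RefSeq (GRCm38.p6). In all 20380 probe sets had 1 symbol, 691 had several and 1555 were unnamed here, and probe sets with several were not used for names. Both comparisons were fitted with limma 3.58.1 under R 4.3.3, using lmFit and eBayes without covariates or a filter, on all 22626 probe sets, with Benjamini-Hochberg adjustment and a threshold of 0.05, and the step was tested on simulated data. Unadjusted p-values are limma's. With 2 arrays a group, precision is limited by their number.

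The genes, lists and tests were chosen with earlier results of these data known. The rule for named genes takes the 10 genes, and from each list, among genes above the median level, up to 3 by the size of the TCDD difference and up to 2 by that of the number difference. It also takes the 3 genes closest in profile to the gene of widest range. Alternatives were median centring, further quantile normalisation, array weights, a filter at the median level, robust fitting with a variance trend, gene means, leaving out probe sets named _x_at, _s_at or _a_at, blocks and each array left out.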

Additional observations from a re-analysis of the deposited data

How the results depend on the processing

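No alternative brought any of the 10 genes past the threshold in either comparison. The count of probe sets called between the numbers was 1. It became 11 with a variance trend and robust fitting, and 0 with treatment as a block. For gene means, where genes and not probe sets were fitted, 7 of 12393 genes passed. With the trend and robust fitting 1 pathway gene, Klf10, passed at 2.51. With the replicate block 0 probe sets passed for TCDD against DMSO and the median difference of the genes was -0.13. Deviations from the group mean correlated at 0.234 over all probe sets between arrays with the same number. With 2 arrays a group, both numbers give this same value by construction. It is too little to show that the numbers pair the samples. The causes of these changes were not tested.

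Directions turned in a few settings, all of them for differences that did not pass. For TCDD against DMSO, Smad4 was -0.045 without the suffixed probe sets and -0.032 for gene means, where Bmp7 was -0.025 and Wwp1 -0.013. For number 1 against number 2, centring gave 0.015 for Ski and 0.035 for Itgae, quantile normalisation gave -0.028 for Smad4, gene means gave -0.182 for Smad4, and without the suffixed probe sets Nedd4l was -0.16. As arrays were left out, the median difference of the genes with TCDD ran from -0.39 to 0.05, and turned without TCDD array 2. It was -0.071 for gene means. The median between the numbers, 0.02, ran from -0.037 to 0.313 and was 0.092 without the suffixed probe sets, 0.06 after centring, 0.01 after quantile normalisation and 0.005 for gene means. A group left with 1 array was assumed to vary like the other group. Tgfb1 and Tgif1 have no value under the filter at the median level, nor Smad2 and Tgif1 without the suffixed probe sets.

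As arrays were left out, these TCDD differences also turned: Tgfbr1 (-0.64 to 0.29), Tgfbr2 (-0.565 to 0.085), Smad3 (-0.11 to 0.03), Smad7 (-0.495 to 0.015), Skil (-0.38 to 1.03), Tgif1 (-0.40 to 0.62), Gzma (-1.935 to 0.765), Sp1 (-0.945 to 0.295), Traf6 (-0.125 to 0.575), Usp4 (-0.13 to 0.53), Akt1 (-0.06 to 0.46), Itgav (-0.035 to 0.445), Bmp7 (-0.10 to 0.31) and Eng (-0.135 to 0.185). Those of Tgfb1 (-0.505 to -0.225), Smad2 (-0.45 to -0.14), Ski (-0.115 to -0.055), Smad4 (0.33 to 0.36) and Itgae (0.255 to 0.435) could not turn, because their groups do not overlap. Between the numbers, Tgfb1 (-0.405 to 0.075), Tgfbr1 (-0.635 to 0.305), Tgfbr2 (-0.13 to 0.55), Smad2 (-0.25 to 0.32), Smad3 (-0.115 to 0.015), Smad4 (-0.18 to 0.19), Ski (-0.085 to 0.035), Itgav (-0.455 to 0.005), Acvr1b (-0.38 to 0.10) and Itgae (-0.265 to 0.255) turned. Those of Skil (0.61 to 1.36) and Tgif1 (0.53 to 0.93) could not turn, because their values do not overlap between the numbers.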

Other observations

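Skil had the widest range of the 10 genes, 1.41 on the log2 scale over the 4 arrays. The genes whose profiles, centred on their own means, lay closest to it by Euclidean distance over these 4 arrays were Taf1d at 0.036, Glul at 0.124 and Rnf19a at 0.14, where the median over all genes was 1.181. Taf1d, which encodes a subunit of the RNA polymerase I selectivity factor, measured 8.96 and 7.58 in the TCDD arrays, against 8.22 and 7.63 in the DMSO arrays. Glul, which encodes glutamine synthetase, measured 10.18 and 8.72 in the TCDD arrays, against 9.36 and 8.96 in the DMSO arrays. Rnf19a, which encodes a ubiquitin ligase, measured 9.43 and 7.97 in the TCDD arrays, against 8.72 and 8.26 in the DMSO arrays. All of these were higher in the arrays numbered 1, with TCDD array 1 highest. That shared order follows from choosing them by closeness to Skil on these arrays, and is no separate result.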
